A study of Mus musculus with 12 samples.

Results

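A set of 64 mouse genes had 0 counts in each of 3 AAV-Cre libraries and at least 100 counts in each of 3 AAV-GFP libraries. They were chosen by these counts from the 55809 gene symbols in the count table. Before symbols were dropped by name, 80 genes met the condition, and 16 of them were dropped. The dropped names were Dnah12, Rsph4a and Cfap genes of the axoneme, uncharacterised transcripts, Sema3c, Kcnmb1 and Acta2. The AAV counts of the 64 genes are therefore given as a description with no test.

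The AAV libraries were made from the hypothalamic paraventricular nucleus (PVH) of 26-week-old mice of the genotype Otp fl/fl; Ai14. An adeno-associated virus (AAV) carrying either Cre or GFP had been injected 12 weeks earlier. Ai14 carries a reporter that makes the red protein tdTomato (TOM) once Cre has acted, and the floxed Otp gene encodes a transcription factor of hypothalamic neurons. The sorted cells were TOM positive in the Cre arm but GFP positive in the GFP arm, so virus and sorting gate changed together and their parts cannot be told apart. A further 6 libraries came from the hypothalamus of uninjected Mc4r-Cre; Ai14 mice aged 4 weeks, in which Cre follows the melanocortin 4 receptor gene. These were 3 of TOM positive and 3 of TOM negative cells, and they played no part in choosing the genes. The labels give neither the promoter of either virus nor which exons of Otp are floxed, and they leave unsaid whether replicate libraries stem from different mice. The p-values below therefore measure the spread between libraries, which may be technical.

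Ependymal cells line the brain ventricles, the third of which borders the PVH, and each carries a tuft of motile cilia that moves cerebrospinal fluid. A motile cilium is built on an axoneme of microtubules with a central pair, radial spokes and dynein arms, and many genes for these parts are switched on together by Foxj1 and by RFX factors, which bind the X-box. The choroid plexus, a related epithelium of the ventricles, secretes cerebrospinal fluid, while vessels bring endothelial cells, smooth muscle and red cells into brain tissue.

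Promoter sequences are shown because many of the genes share ciliary functions that RFX and forkhead factors are known to serve. RefSeq promoters of build GRCm38.p6, which run from 250 bases before to 50 after a start site, were matched for 49 of the 64 genes. The bases before the start site follow for 4 genes, 5′ to 3′ in the direction of transcription. Capitals mark GTTGCC, an arm of the X-box, or GTAAACA, a forkhead motif, each on either strand, so that GGCAAC and TGTTTAC are their reverse complements.
Ccdc170, chr10:4482265-4482514, plus strand: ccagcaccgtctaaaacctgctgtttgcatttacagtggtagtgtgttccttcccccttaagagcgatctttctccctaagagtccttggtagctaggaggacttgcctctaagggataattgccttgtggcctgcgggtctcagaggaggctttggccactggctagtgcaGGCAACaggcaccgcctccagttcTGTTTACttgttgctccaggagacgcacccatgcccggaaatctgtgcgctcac
Iqca, chr1:90153437-90153686, minus strand: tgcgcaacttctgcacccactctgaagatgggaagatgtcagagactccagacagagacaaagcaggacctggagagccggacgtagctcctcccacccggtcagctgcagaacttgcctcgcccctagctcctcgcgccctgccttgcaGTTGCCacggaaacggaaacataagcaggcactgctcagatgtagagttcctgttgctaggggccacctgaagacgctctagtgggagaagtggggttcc
Stoml3, chr3:53488457-53488706, plus strand: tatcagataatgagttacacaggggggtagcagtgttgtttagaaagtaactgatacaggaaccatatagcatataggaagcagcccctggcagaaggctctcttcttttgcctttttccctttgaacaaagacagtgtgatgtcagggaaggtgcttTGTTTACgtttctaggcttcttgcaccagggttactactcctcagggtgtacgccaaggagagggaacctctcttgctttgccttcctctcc
Stmnd1, chr13:46273471-46273720, plus strand: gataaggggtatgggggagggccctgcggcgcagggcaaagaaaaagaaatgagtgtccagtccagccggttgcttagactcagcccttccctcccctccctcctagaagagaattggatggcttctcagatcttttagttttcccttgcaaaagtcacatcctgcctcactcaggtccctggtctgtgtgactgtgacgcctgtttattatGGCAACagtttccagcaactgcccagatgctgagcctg
Ccdc170 held GTTGCC 78 bases and the forkhead motif 54 bases before this start site. In Iqca the GTTGCC match lay 100 bases before the start, and in Stmnd1 38 bases before it. The forkhead match of Stoml3 lay 92 bases before its start.

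Searched on both strands of the whole 300 bases, GTTGCC occurred in 13 of the 49 matched genes (26.5%), against 14.1% of 27025 genes in the promoter table. Among the 14 matched genes from the ependymal marker lists it occurred in 6 (42.9%), and among the other 35 in 7 (20%). The forkhead motif GTAAACA was found in 4 of 49 genes (8.16%), against 4.05% of all genes, and 3 of those 4 were ependymal list genes. The CArG box, bound by the smooth muscle regulator SRF, was found in 1 gene (2.04%), against 1.81% of all genes. Ccdc170 was the only gene of the 49 with both GTTGCC and GTAAACA, and the matches did not overlap. A match is a description of letters, not of binding.

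The targeted gene Otp had 12, 9 and 10 counts in AAV-Cre replicates 1, 2 and 3 and 91, 102 and 38 in the AAV-GFP ones, which did not overlap. The AAV libraries held between 13506018 and 19245171 counts each and the TOM libraries between 17727134 and 27827853. AAV-Cre libraries listed more genes at 0, with 38821 to 41062 against 31907 to 35031 in AAV-GFP. Summed levels of 24 pan-neuronal genes overlapped, at 3949, 3513 and 3338 CPM (counts scaled to a common library total) in AAV-Cre and 3096, 3208 and 3938 in AAV-GFP libraries.

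The zeros were not limited to the 64 genes. Of 9752 genes with at least 100 counts in each AAV-GFP library, 9300 had a count in each AAV-Cre library, 257 were at 0 in 1 of them, 115 in 2 and 80 (0.82%) in all 3. No gene showed the reverse pattern, 0 in each AAV-GFP library with at least 100 in each AAV-Cre library. Zeros beside high counts also occurred between AAV-Cre libraries, where 260 genes were at 0 in 1 library with at least 100 counts in the other 2. The same count was 0 genes for AAV-GFP, 217 for TOM positive and 7 for TOM negative. How far such dropping out of single genes contributes to the 64 was not tested.

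**Figure D1:**
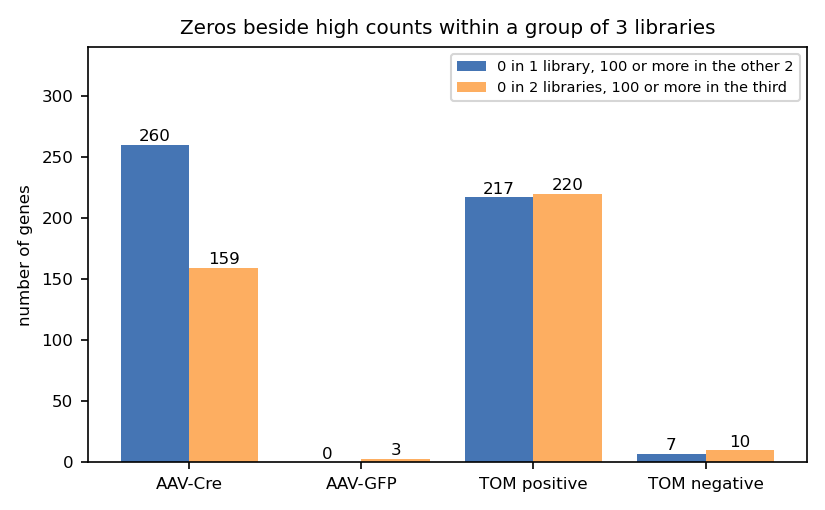
Number of genes (vertical axis) with 0 counts in 1 library and at least 100 in the other 2 (blue), or 0 in 2 and at least 100 in the third (orange), in each group of 3 libraries. AAV-Cre (260 and 159 genes) and TOM positive (217 and 220) stood above AAV-GFP (0 and 3) and TOM negative (7 and 10).

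The 64 genes lay on 18 chromosomes, and their mean AAV-GFP level ran from 8.65 to 144 CPM with a median of 21.0. By counting error alone, a count of 0 in all AAV-Cre libraries allows a level of up to 0.0661 CPM, which is 3 counts over the group. With the AAV-GFP counts also summed over the group and divided by the summed library totals, the genes were at least 132-fold to at least 2254-fold lower after AAV-Cre, with a median bound of 333. Summing gives the deeper libraries more weight than the mean CPM does, and the mean CPM of the genes was 131 to 2178 times the limit, with a median of 317. These bounds cover counting error only, because no protocol describes molecular identifiers. Zeros beside high counts were common between AAV-Cre libraries, so a 0 there need not bound the level. The rule asked for 0 against at least 100 counts, so large bounds were fixed by the choice of genes and are a description. In sorted bulk cells, fewer cells of a type and less RNA per cell cannot be told apart.

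Their levels also differed between the AAV-GFP libraries. They made up 0.309, 0.170 and 0.108% of all counts in AAV-GFP replicates 1, 2 and 3. Replicate 1 was the highest for 51 genes, replicate 2 for 10 and replicate 3 for 3. The highest library stood 1.09 to 6.17 times above the lowest, with a median of 2.48.

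By likely cell of origin, 25 genes stood in marker lists of hypothalamic and neighbouring cell types, 16 more could be placed by what their product is known to do, and 23 were left unassigned. Ependymal lists held 16 genes, and 5 more were placed with motile cilia by name. These 21 genes made up 52.4, 41.5 and 44.2% of the counts of all 64 in replicates 1, 2 and 3. Foxj1 itself was not at 0, with 78, 66 and 42 counts in the AAV-Cre libraries against 388, 1162 and 233 in AAV-GFP.

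**Figure D2:**
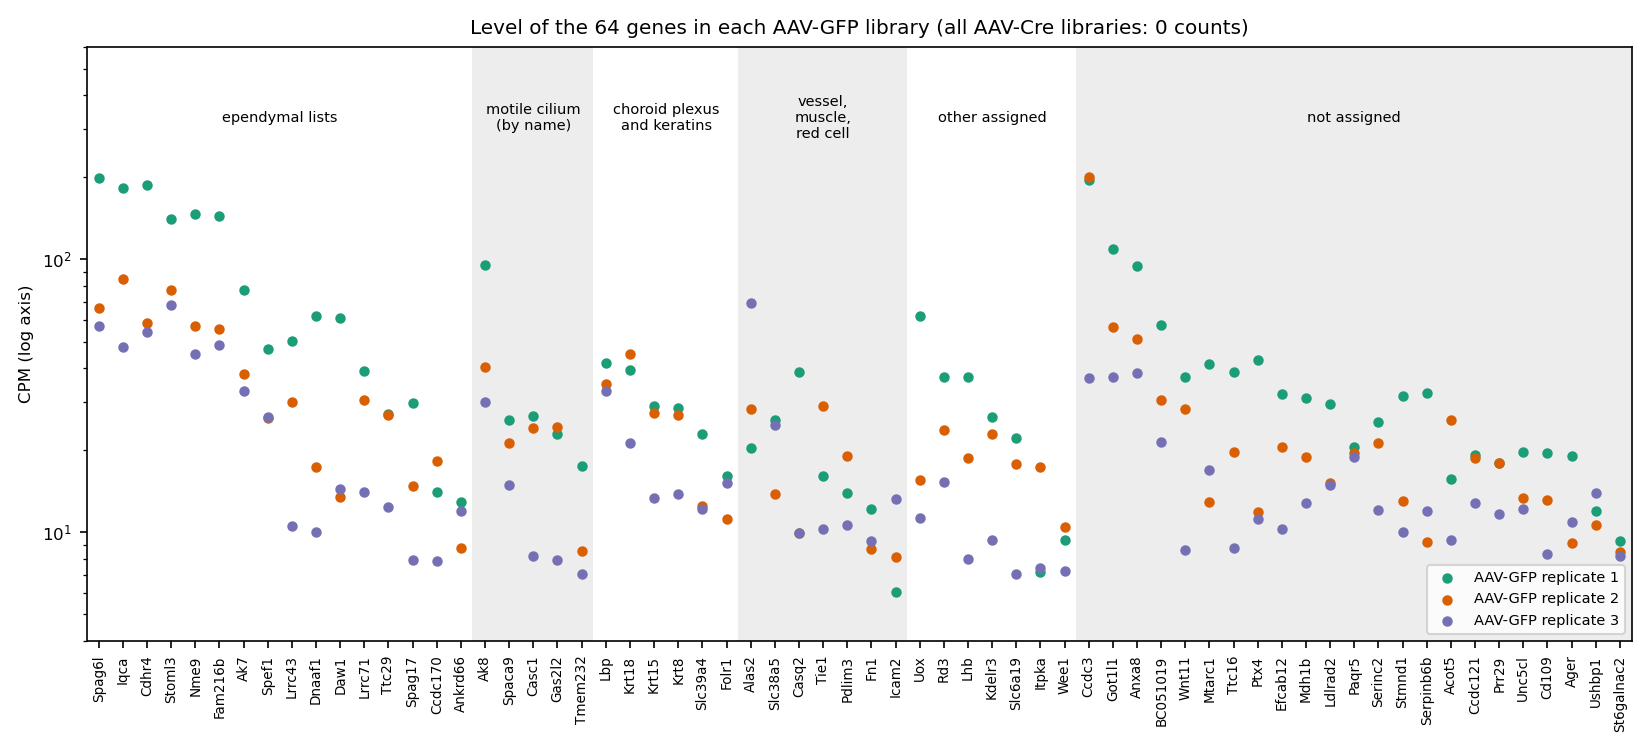
Level in CPM (log axis) of each of the 64 genes in AAV-GFP replicates 1, 2 and 3 (green, orange and purple points), grouped by assigned origin and sorted by mean within a group. Replicate 1 lies highest for 51 genes, and Ccdc3 has the highest mean, 144 CPM.

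Genes of the axoneme and of its assembly formed the largest assigned class, with 10 members. Spag6l, a protein of the central pair (chromosome 16, 16570880 to 16647320), stood at 198, 66.1 and 56.8 CPM in AAV-GFP replicates 1, 2 and 3. Iqca, which encodes a part of the dynein regulatory complex (chromosome 1, 89969854 to 90081123), had 3533, 1169 and 682 counts. Nme9, a thioredoxin-domain protein of the cilium (chromosome 9, 99333528 to 99356804), had 2842, 787 and 643. In all 3 genes replicate 1 stood well above the others, and each AAV-Cre library was at 0.

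Mean levels were 107 ± 79.0 CPM for Spag6l (SD, n = 3), 105 ± 69.5 for Iqca and 82.9 ± 55.5 for Nme9. Per kilobase of exon the order changed, and Nme9 led with 49.9 CPM per kb, ahead of Iqca with 24.5 and Spag6l with 23.5. From counts summed over the group, the fold bounds were at least 1774-fold for Spag6l, 1718-fold for Iqca and 1363-fold for Nme9. The rule fixed that such bounds would be large, and they cover counting error only.

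Daw1 and Dnaaf1 serve the assembly of dynein arms. Daw1 had 1183, 187 and 205 counts and Dnaaf1 1201, 239 and 143, so both were far higher in replicate 1. Dnaaf1 had the widest ratio of the 64 genes between replicates 1 and 3, 6.17. Ak7, an adenylate kinase of the cilium, had 1498, 527 and 471 counts. The other axoneme members were Spef1, Ttc29, Spag17, another central pair protein, and Ccdc170. Together the 10 genes summed to 845, 363 and 262 CPM, and their ratio of replicate 1 to replicate 3 had a median of 3.37.

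The other 6 ependymal list genes were also each highest in replicate 1. Stoml3, a stomatin-like membrane protein known from olfactory cilia (chromosome 3, 53396074 to 53415923), had 2725, 1070 and 968 counts. Cdhr4, a cadherin-related protein (chromosome 9, 107869696 to 107876883), had 3622, 810 and 772, but shares 52.2% of its exon bases with 4 other genes. Fam216b (chromosome 14, 78318461 to 78326447) had 2790, 769 and 689. Stoml3 reached 95.3 ± 39.5 CPM and 44.3 CPM per kb, Cdhr4 99.9 ± 75.4 and 32.4, and Fam216b 82.6 ± 53.2 and 35.6. Lrrc43, Lrrc71 and Ankrd66 were lower. Ankrd66 was the most even across libraries, with 251, 121 and 170 counts and a ratio of replicate 1 to replicate 3 of 1.08.

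Outside the lists, Ak8, Spaca9, Casc1, Gas2l2 and Tmem232 are known from cilia or sperm flagella. Ak8, another adenylate kinase of cilia, had 1851, 558 and 429 counts, and its neighbour Spaca9 had 499, 294 and 213. The 2 genes lie 437 bases apart on chromosome 2, and counting did not use strand. Gas2l2, which links microtubules and actin at ciliary bases, had 446, 337 and 113 counts. The 5 genes summed to 188, 119 and 68.3 CPM.

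Ependymal list genes that are not among the 64 were also lower. In edgeR's quasi-likelihood test over 15408 genes, 1.97% of genes were lower after AAV-Cre and 0.63% were higher at an adjusted p under 0.05. Of 73 axoneme list genes outside the 64, 27 were lower, and of 37 other ependymal marker genes outside them, 13 were lower. These counts include genes that met the same zero condition but were dropped by name. In the axoneme list 19 genes, 10 of them members and 3 dropped by name, were at 0 in each AAV-Cre library. In the list of other ependymal markers 13 genes were, 6 of them members and none dropped by name. Non-members at 0 there could be tested only on their AAV-GFP counts, so calls of such genes are no separate support. How many of the 27 and 13 calls are of such genes was not counted. Without AAV-GFP replicate 1, 2 or 3 the number of lower genes in both lists, members included, went from 56 to 0, 2 and 0, and without AAV-Cre replicate 2 to 30. The oligodendrocyte list, which holds none of the 64, differed in the other direction, with 6 of 20 genes higher after AAV-Cre, against 0.63% of all tested genes, and a median log2 change of 1.56. Its summed level overlapped, at 59840, 64410 and 50700 CPM in AAV-Cre and 37860, 16390 and 54770 in AAV-GFP libraries. No gene of any list was called without AAV-GFP replicate 1 or 3.

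Rsph1, a radial spoke protein, had 0, 35 and 73 counts in the AAV-Cre libraries against 5452, 2335 and 1803 in AAV-GFP, a log2 change of -6.29 ± 1.23 (SE; edgeR adjusted p = 0.0486). Pltp, a phospholipid transfer protein, had 1286, 844 and 943 against 7592, 12284 and 9141, a change of -3.25 ± 0.38 (edgeR adjusted p = 0.0202). Tppp3 had 2452, 2452 and 1538 against 8428, 7998 and 5487, a change of -1.72 ± 0.30 (edgeR adjusted p = 0.0350). With a library left out, Tppp3 lost its call in all 6 fits (edgeR adjusted p 0.0688 to 0.138). Rsph1 lost it in each of the 5 fits other than that without AAV-Cre replicate 1 (edgeR adjusted p 0.0626 to 0.161), and also without scaling factors (edgeR adjusted p = 0.0511). Pltp lost it without AAV-Cre replicate 2 or any AAV-GFP replicate (edgeR adjusted p 0.0518 to 0.108). Drc3, with 0, 126 and 17 against 5268, 1160 and 965, did not pass (edgeR adjusted p = 0.0906). The summed level of the axoneme list, members included, was 207, 221 and 248 CPM in AAV-Cre libraries against 5458, 3006 and 2069 in AAV-GFP. Ccdc153 and Tmem212, ependymal markers looked up after the values were seen, had at most 28 and 6 counts in an AAV-Cre library.

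**Figure D3:**
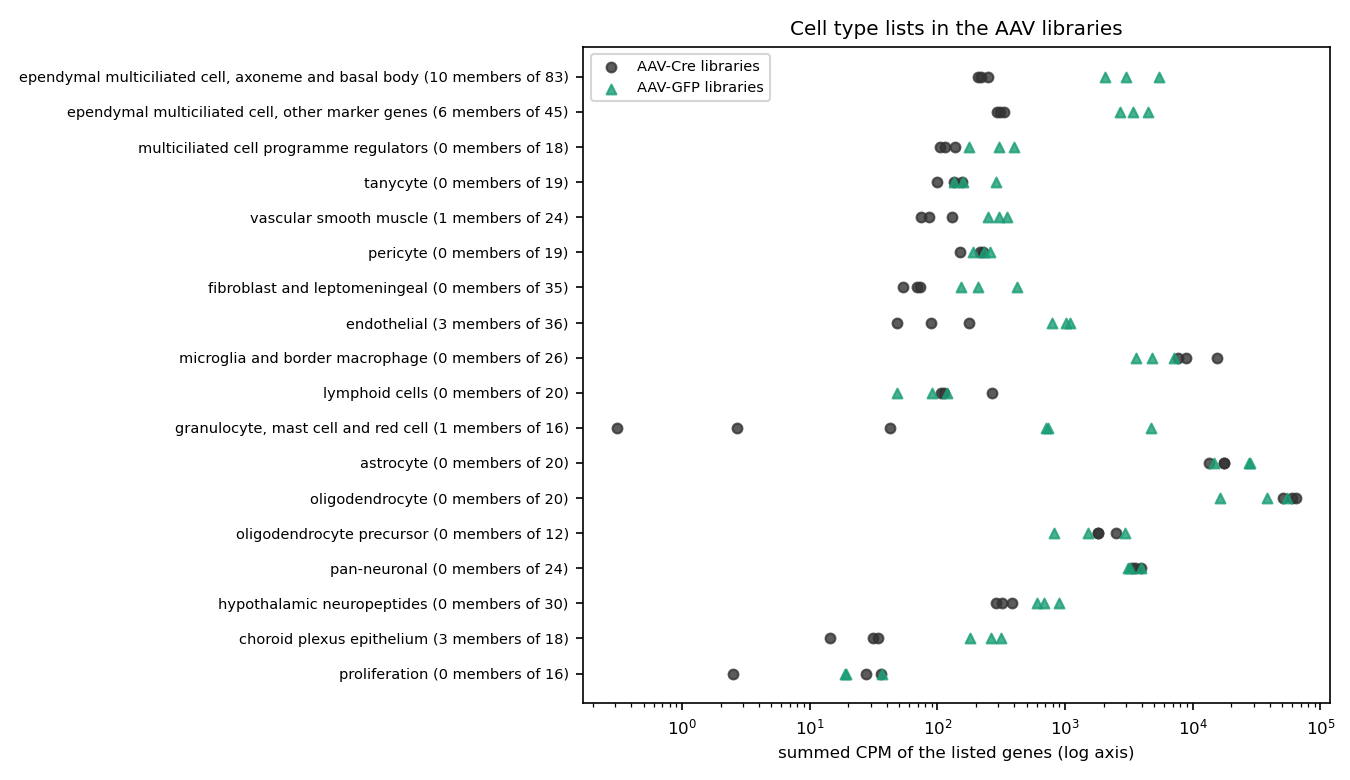
Summed level in CPM (log axis) of each cell type list in AAV-Cre libraries (dark circles) and AAV-GFP libraries (green triangles), 3 points per group, for lists with at least 5 genes tested. The axoneme list stood at 207 to 248 CPM after AAV-Cre and 2069 to 5458 after AAV-GFP, while the pan-neuronal points overlap.

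Choroid plexus markers made up 3 of the 64 genes. Lbp, a lipopolysaccharide-binding protein, had 808, 482 and 469 counts, Folr1, a folate receptor, 312, 155 and 216, and Slc39a4, a zinc importer, 443, 173 and 173. Their summed level was highest in replicate 1 and close in the other 2 libraries, at 80.6, 58.6 and 60.2 CPM. Ttr, the most abundant transcript of choroid plexus, did not follow them, with 1, 157 and 0 counts in AAV-Cre against 71, 5 and 163 in AAV-GFP libraries. Outside the 64, 1 of 9 tested genes of that list was lower after AAV-Cre, against 1.97% of all tested genes. That list had 10 genes at 0 in each AAV-Cre library, 3 of them members. A non-member at 0 there could be tested only on its AAV-GFP counts.

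The epithelial keratins Krt8, Krt18 and Krt15 form intermediate filaments. Krt8 (chromosome 15, 101905133 to 101912917) had 553, 372 and 197 counts, Krt18 (chromosome 15, 101936615 to 101940462) 764, 625 and 302, and Krt15 564, 379 and 190. Krt8 and Krt18, whose products pair in simple epithelia, lie 23698 bases apart. Replicate 3 was the lowest for all 3 keratins, and Krt18 had the highest level per length, 24.5 CPM per kb against 13.2 for Krt15 and 11.8 for Krt8.

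Vascular genes were spread differently. Tie1, an endothelial receptor kinase, had 311, 403 and 147 counts, Icam2, an adhesion molecule, 117, 112 and 189, and Slc38a5, a glutamine transporter, 498, 191 and 353. Each was highest in a different library, and their sum was almost level at 47.8, 51.0 and 48.4 CPM. Icam2 lies 98 bases from Prr29 on chromosome 11, another of the 64 genes, whose level was highest in replicate 2 while that of Icam2 was highest in replicate 3. The endothelial list summed to 47.8, 89.6 and 176 CPM in AAV-Cre against 1024, 788 and 1086 in AAV-GFP libraries, members included. Outside the 64, 5 of its 28 tested genes were lower, against 1.97% of all tested genes. In the whole list 15 genes, 3 of them members, were at 0 in each AAV-Cre library. Non-members among those 15 could be tested only on their AAV-GFP counts, so calls of such genes are no separate support. Tm4sf1 and Ly6c1, the highest list genes outside the 64 in AAV-GFP with an AAV-Cre count, did not pass (edgeR adjusted p = 0.0727 and 0.0513). Cldn5, the tight junction marker, looked up after the values were seen, had 0, 5 and 123 counts in AAV-Cre against 949, 509 and 1120 in AAV-GFP libraries.

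Casq2, a calcium store protein of muscle, was the only smooth muscle list gene among the 64, with 749, 138 and 141 counts. Acta2, dropped by name, had 1047, 528 and 575 counts after AAV-GFP and 0 in each AAV-Cre library. Of the smooth muscle list genes with a count after AAV-Cre, Myl9 fell from 1494, 712 and 845 counts to 45, 143 and 53, a log2 change of -3.54 ± 0.55 (SE; edgeR adjusted p = 0.0277). That call was lost without AAV-Cre replicate 3 or any AAV-GFP replicate, with edgeR adjusted p from 0.0601 to 0.138. Fn1, which encodes fibronectin, had 236, 120 and 132 counts and the lowest level per length of the 64 genes, 0.859 CPM per kb.

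Alas2 showed the reverse order of libraries. It encodes the red cell enzyme that starts heme synthesis (chromosome X, 149330371 to 149353634), and it had 396, 391 and 988 counts, highest in replicate 3. Hemoglobin alpha Hba-a1 was likewise highest there, with 9073, 4765 and 34954 counts after AAV-GFP against 0, 323 and 25 after AAV-Cre, and did not pass the test (edgeR adjusted p = 0.0880).

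Some of the genes are best known from other tissues. Lhb, the beta subunit of luteinizing hormone, had 719, 260 and 114 counts. The other defining pituitary genes were near 0 in AAV-GFP, with Gh and Prl at 0 in each library and Cga at 2, 2 and 0. Lhb shares 5.43% of its exon bases with Ruvbl2. Uox, the urate oxidase of liver, had 1200, 215 and 161 counts, Rd3, a retinal protein, 716, 329 and 217, and Slc6a19, an amino acid transporter of kidney and gut, 431, 247 and 100. Itpka, an inositol trisphosphate kinase of neurons, had 139, 240 and 105 and was highest in replicate 2. Wee1, a kinase that holds back mitosis, and Kdelr3, which returns proteins to the endoplasmic reticulum, act in many cells.

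The gene with the highest mean level of the 64 was among the 23 unassigned. Ccdc3, a secreted protein (chromosome 2, 5142587 to 5235689), had 3773, 2767 and 525 counts, 144 ± 92.7 CPM (SD, n = 3) and 53.9 CPM per kb. Got1l1 had 2110, 779 and 528 counts, Anxa8, an annexin, 1836, 704 and 547, and BC051019 1115, 422 and 304. Of these 23 genes, 19 were highest in replicate 1. Paqr5 and St6galnac2 were the flattest, with 398, 269 and 268 counts and 180, 117 and 117.

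At the edge of the rule, Slc6a19 and Tmem232 were kept with a lowest count of 100 and Wee1 with 103. Tsnaxip1, Ccdc180 and Sptlc3, also at 0 in each AAV-Cre library, were left out with lowest counts of 99, 98 and 97.

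The TOM libraries gave a look at the same genes in cells that the rule had not used. Of the 64 genes, 59 had a count in some TOM library, so their counting only after AAV-GFP holds within the AAV libraries. A count in some TOM negative library was found for 58 genes, and in some TOM positive library for 33. In each TOM positive library 31 were at 0, and 26 of those had a TOM negative count. Uox, Krt8, Spag17, Mtarc1 and Ldlrad2 were at 0 in all 6 libraries.

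The counts were low. Only 6 genes reached 100 counts in each TOM negative library, and none did so in each TOM positive library. Without Alas2, the 64 genes made up 0.0114, 0.0188 and 0.0157% of counts in TOM negative libraries and 0.00436, 0.00843 and 0.00593% in TOM positive ones. Zeros also stood beside high counts here, as in Stoml3 with 0, 125 and 0 TOM positive counts and Lrrc71 with 15, 189 and 0. These mice were younger, their whole hypothalamus was sorted and no virus was injected, so levels are not compared with those of the AAV libraries.

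**Figure D4:**
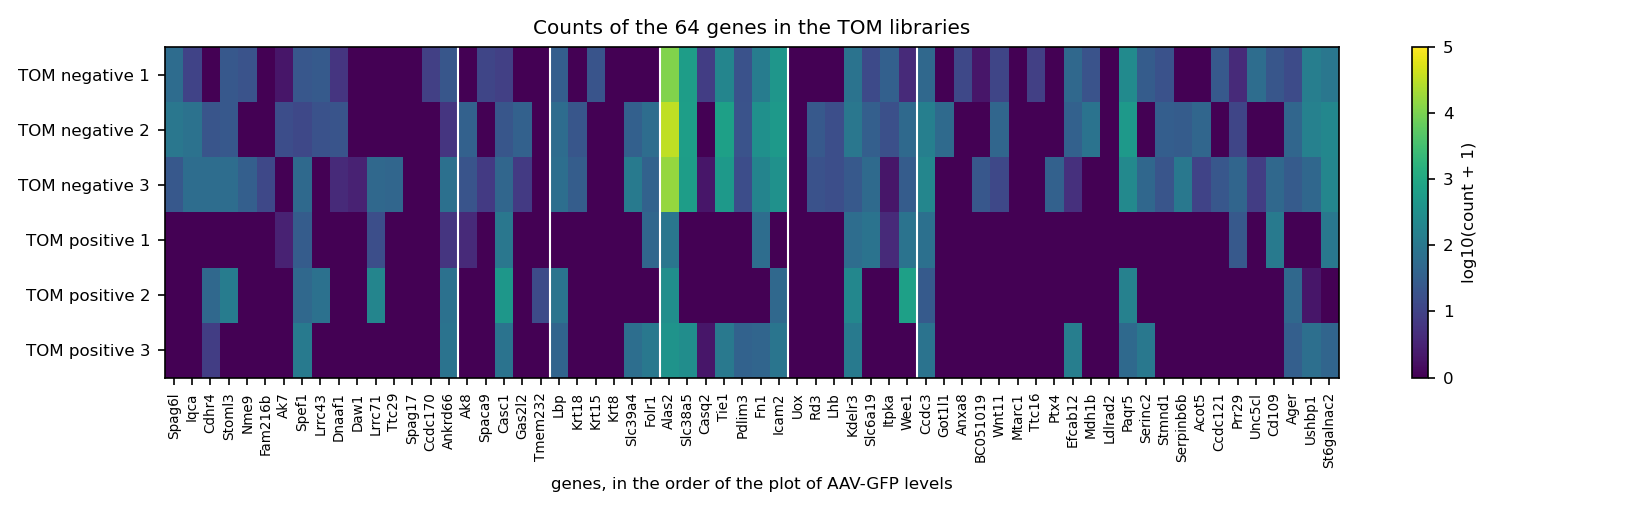
Counts of the 64 genes (columns, in the order of the plot of AAV-GFP levels) in the 3 TOM negative and 3 TOM positive libraries (rows), coloured by log10(count + 1). Most columns are dark, with 31 genes at 0 in each TOM positive library, and Alas2 is the brightest, with up to 33493 counts in a TOM negative library.

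In edgeR's quasi-likelihood test over 15228 genes, 13.4% of genes were higher for TOM negative and 10.4% for TOM positive cells at an adjusted p under 0.05. Of the 64 genes, 30 had enough counts to be tested and 34 did not. Among the 30, 4 were higher in TOM negative libraries, none was higher in TOM positive ones and 26 were not called. Without adjustment, 6 had p under 0.05 with TOM negative above and 1 with TOM positive above. The log2 change was above 0 for 20 and below 0 for 10, with a median of 0.87 against 0.02 over all tested genes. Each TOM negative library stood above each TOM positive one for 9 of the 30, against 25.6% of all tested genes, and the reverse held for 1, against 20.7%. The filter on low counts can let a gene through on its higher group alone, so these counts describe the 30 tested genes, not the 64. DESeq2, which filters differently and gave an adjusted p for 47 of the 64, called 8 with TOM negative above, 5 of them among the 30, and 1, Casc1, with TOM positive above.

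Alas2 differed most clearly. It had 11372, 33493 and 16340 counts in TOM negative replicates 1, 2 and 3 and 90, 290 and 365 in the TOM positive ones. The groups did not overlap, at 979 ± 561 against 8.86 ± 3.85 CPM (SD, n = 3 each), and the log2 difference of 6.78 ± 0.59 (SE) passed (edgeR adjusted p = 0.000481). It passed with each library left out. In the list of granulocyte, mast cell and red cell genes, 6 of the 9 tested were higher in TOM negative libraries, Alas2 included, against 13.4% of all tested genes.

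Spag6l was the only ependymal list member called. It had 57, 93 and 23 counts in TOM negative libraries and 0 in each TOM positive one, at least 73.0-fold higher (edgeR adjusted p = 0.0127). The call was lost without TOM negative replicate 1 (edgeR adjusted p = 0.0540) or replicate 2 (edgeR adjusted p = 0.0632). Spag6l could enter the filtered fit only on its TOM negative counts, and without the count filter it passed (edgeR adjusted p = 0.0203). Iqca showed the same shape with 9, 75 and 61 counts against 0 in each, at least 61.2-fold, and fell below the count filter of the edgeR fit. It passed without that filter (edgeR adjusted p = 0.0309) and in DESeq2 (adjusted p = 0.000186). It also passed in each of the 4 fits with a library left out that kept it (edgeR adjusted p 0.0347 to 0.0463). With 0 in each TOM positive library, it could enter those 4 fits only on its TOM negative counts, so they are no separate support. Fold bounds in the TOM comparison, here and below, also cover counting error only. Zeros beside high counts were common between TOM positive libraries, so a 0 there need not bound the level. The other ependymal members were split. Spef1 had 22, 11 and 50 counts in TOM negative and 28, 49 and 111 in TOM positive libraries, which overlap. Of the whole axoneme list, 7 of 45 tested genes were higher in TOM negative libraries, a share near the 13.4% of all tested genes, and none in TOM positive ones.

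Stmnd1, which encodes a stathmin-domain protein (chromosome 13, 46427197 to 46453591), had 17, 30 and 20 counts in TOM negative libraries and 0 in each TOM positive one. It was at least 28.3-fold higher (edgeR adjusted p = 0.0125), a call lost without any of the 3 TOM negative replicates, with adjusted p from 0.0545 to 0.0707. The call of Stmnd1 was also lost without the count filter (edgeR adjusted p = 0.0555). Wnt11, a Wnt ligand (chromosome 7, 98484319 to 98504402), had 10, 44 and 11 counts against 0 in each, at least 27.4-fold (edgeR adjusted p = 0.0213). That call was lost with any of the 6 libraries left out, with adjusted p from 0.0508 to 0.0826. Without the count filter the call of Wnt11 was lost as well (edgeR adjusted p = 0.0666). Like Spag6l, both genes could enter the filtered fit only on their TOM negative counts, so their calls are no separate support.

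Endothelial members had higher mean levels in TOM negative libraries but were not called by edgeR. Tie1 had 189, 703 and 504 counts against 0, 0 and 106, a log2 difference of 4.22 ± 1.79 (SE; edgeR adjusted p = 0.135). Icam2 had 425, 512 and 340 against 0, 48 and 86, a difference of 3.76 ± 1.23 (edgeR adjusted p = 0.0646). Slc38a5 had 617, 646 and 597 against 0, 0 and 281, a difference of 3.25 ± 1.80 (edgeR adjusted p = 0.244). DESeq2 called Icam2 (DESeq2 adjusted p = 0.00232) but neither Tie1 nor Slc38a5 (DESeq2 adjusted p = 0.208 and 0.3895). In all 3 genes each TOM negative library stood above each TOM positive one, which held for 25.6% of all tested genes. Without TOM positive replicate 3, Tie1 and Slc38a5 passed (edgeR adjusted p = 0.00693 and 0.00136). That library was the only TOM positive one with a count for either gene, so leaving it out removed the contrary value. Icam2 passed without TOM positive replicate 1. The other fits with a library left out did not pass. Their edgeR adjusted p reached 0.321 for Tie1, 0.183 for Icam2 and 0.404 for Slc38a5. In the endothelial list, 7 of 30 tested genes were higher in TOM negative libraries, against 13.4% of all tested genes, and none was higher in TOM positive ones, against 10.4%.

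Casc1 was the gene that leaned most clearly the other way. This dynein-associated protein had 8, 21 and 44 counts in TOM negative and 94, 446 and 81 in TOM positive libraries, a log2 difference of -2.72 ± 0.98 that did not pass (edgeR adjusted p = 0.0881). Wee1 had 3, 51 and 28 counts against 78, 679 and 0, and its groups overlapped (edgeR adjusted p = 0.343). Ccdc3, the highest gene after AAV-GFP, had 47, 140 and 193 counts in TOM negative and 69, 25 and 79 in TOM positive libraries, which also overlapped (edgeR adjusted p = 0.296).

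Choroid plexus members were not called either. Lbp had 30, 57 and 62 counts against 0, 82 and 40, and Folr1 0, 60 and 36 against 43, 0 and 98. None of the 11 choroid plexus list genes tested was called in either direction. The keratins were at or near 0 in both groups, with Krt18 at 0, 21 and 29 counts in TOM negative libraries and 0 in each TOM positive one. They had too few counts to be tested.

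**Figure D5:**
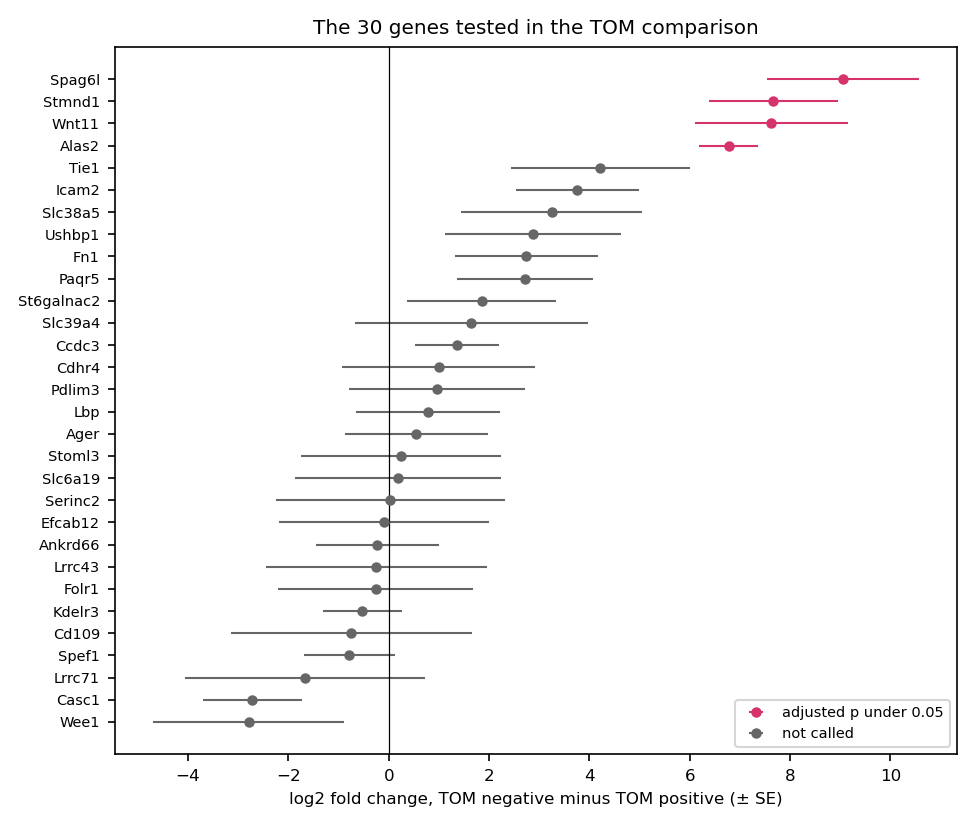
Log2 difference, TOM negative minus TOM positive, with its SE for the 30 tested genes, with pink for an adjusted p under 0.05 in edgeR and grey for genes not called. The 4 pink genes are Spag6l, Stmnd1, Wnt11 and Alas2; the fitted values of the first 3 depend on a prior count because their TOM positive libraries are at 0.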

How the data were processed

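Both deposited tables held raw counts, 1 whole number for each gene name and library, and the 6 single AAV files equalled their columns in the joint table. Per the file headers of the AAV files, the authors ran featureCounts 2.0.1 in paired mode on GENCODE vM30 by gene name, without strand and without multi-mapping reads. The submitters' processing notes name FastQC, Trim Galore, STAR and mm10. The TOM table carries no header, so how it was counted is not stated. Gene coordinates are those of vM30 in the files, and promoter coordinates are GRCm38.p6; none was converted. Cells were sorted into Trizol and libraries made with a SMART-Seq low-input kit, per the labels' protocols.

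Each pair of groups was fitted separately with edgeR 4.0.16 (R 4.3.3): TMM scaling, filterByExpr, the two-sided quasi-likelihood test and Benjamini-Hochberg adjustment over every tested gene (threshold 0.05). CPM uses TMM-scaled deposited totals, and the SE comes from the F statistic. DESeq2 1.42.0 was an alternative. The fit was tested on simulated counts with the same spread for every gene. These lacked the zeros beside high counts seen here, so that test does not cover them. No libraries of a group agreed within sampling noise (chi-square per degree of freedom at least 47.7). The members and the lists were chosen with earlier results of these data known, and origins outside the lists were assigned from gene names. Genes were named by level per kilobase in each list and class, by the 5 highest mean levels, by calls in the TOM comparison and by closeness to the threshold; further genes were picked after their values were seen, mainly for large or contrasting counts. Alternatives changed the rule's limits, scaling, filter, tool, replicate block and the libraries used.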

Additional observations from a re-analysis of the deposited data

How the results depend on the processing

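The rule found 64 genes. It found 108 with at least 50 counts in each AAV-GFP library, 21 with at least 200, 63 with at least 7 CPM, 72 with up to 3 AAV-Cre counts and 52 with all libraries thinned to the smallest total. Leaving out a library gave 64 to 117.

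In the TOM comparison 3635 genes were called, 5468 with DESeq2, 3159 without a filter, 1987 with a replicate block and 1511 to 3547 with a library left out. Without scaling factors 1532 genes were higher in TOM negative and 2204 in TOM positive libraries, against 2046 and 1589. Of the 64 genes, 4 were higher in TOM negative libraries, 8 with DESeq2, 3 without a filter and 1 to 8 with a library left out. The 3 without a filter were Alas2, Iqca and Spag6l, so Stmnd1 and Wnt11 lost their calls there. Without a TOM negative library (1, 2, 3) the count was 2, 1 and 2, and without a TOM positive one 6, 5 and 8.

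In the AAV comparison 400 genes were called, 712 without a filter, 1883 with DESeq2 and 0 to 296 with a library left out. It was 0, 2 and 0 without AAV-GFP replicate 1, 2 or 3 and 122 without AAV-Cre replicate 2. Of ependymal list genes, 56 were lower, 98 with DESeq2, 83 without a filter and 0 to 55 with a library left out, an analysis added after seeing the data.

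Same-numbered libraries did not deviate together (correlations -0.092 to -0.068 in AAV and -0.054 to 0.040 in TOM). Such correlations cannot exclude that the numbers pair them. With the replicate block, 0 genes were called in AAV, 0 ependymal list genes among them, and in TOM 1 of the 64 genes, Alas2. The cause of these changes was not tested. Counts near 0, in small cell inputs without molecular identifiers, limit what the TOM libraries can show.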
